A study of Saccharomyces cerevisiae with 12 samples.

Results

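The carnitine shuttle of Saccharomyces cerevisiae was described here through its 5 genes, AGP2 (YBR132C), CAT2 (YML042W), YAT1 (YAR035W), YAT2 (YER024W) and CRC1 (YOR100C), out of 5449 yeast genes measured. They were chosen by gene symbol. A gene with several probe sets is represented by the one selected on the highest mean over the 12 arrays, but each of these 5 genes had 1 probe set, so that step left nothing to choose. The set was proposed with earlier results of the same arrays known.

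Acetyl-CoA does not cross the membranes of mitochondria or peroxisomes. Carnitine acetyltransferases move the acetyl group onto carnitine, acetylcarnitine passes into the mitochondrion through a carrier of the inner membrane, and the group is handed back to coenzyme A inside, where the tricarboxylic acid cycle can oxidise it. Yeast takes its carnitine from the medium, and the shuttle is known for growth on fatty acids, acetate and ethanol, with the peroxisomal citrate synthase Cit2 as an alternative exit for acetyl units. CAT2, YAT1 and CRC1 are known to be kept low by glucose.

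The yeast was EC1118, a commercial wine strain, in every group. Bottle samples came from the second fermentation of sparkling wine, in which ethanol-trained cells and 20 g/L of sucrose went into base wine, and sealed 350 mL bottles stood still at 16 °C for about 40 days. The day 7 bottles had gained 0.26% ethanol, those of day 15 had gained 0.89% and those of day 19 1.27%. The reference was a culture growing exponentially in YPD, a rich glucose medium, at 28 °C to an optical density of 1.0, so the bottles differed from it in medium, temperature, ethanol and vessel at once. Each group held 3 arrays of total RNA. The labels call them biological replicates and describe the bottle samples as independent tirage assays, but do not say whether the reference replicates were separate cultures, so the spread of the reference may be technical.

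Values are RMA summaries on the log2 scale, where a step of 1 is a doubling, and a level is read within a gene and never against another gene. Correlations across genes between replicates lay between 0.892 and 0.966 at day 7, 0.917 and 0.979 at day 15, 0.817 and 0.939 at day 19, and 0.987 and 0.997 in the reference. Replicate 1 of day 19 and replicate 1 of day 7 stand apart from the other bottle arrays on several genes below. Where leaving out 1 array changed a call against the reference or moved a fold by over 1.5 times for a gene named below, that array is named beside it. Probe sets of ribosomal RNA averaged 11.07 to 13.17 on the bottle arrays and 5.25 to 7.70 on the reference arrays. The 3' minus 5' difference of 8 control genes, a sign of RNA length, was 0.64 to 0.93 in the bottles and 0.42 to 0.57 in the reference. The part of either in the changes below was not tested. On the day 19 replicate 1 array that difference was 0.64, the lowest of the bottle arrays.

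All 5 shuttle genes had higher means on each bottle day than in the growing culture. CRC1, the mitochondrial carnitine carrier, was 32.6-fold higher at day 7 and 74-fold higher at day 19, and AGP2, the plasma membrane carnitine transporter, was 14.3-fold to 16.2-fold higher. CAT2, the main carnitine acetyltransferase of peroxisomes and mitochondria, was 5.81-fold to 10.8-fold higher. YAT1 and YAT2, the other acetyltransferase genes, passed the test at day 19 but not at day 7 or day 15. With limma and Benjamini-Hochberg adjustment over all genes, 3 of the 5 rose at day 7, 3 at day 15 and 5 at day 19, where 19.7%, 21.4% and 22.7% of all 5449 genes were called higher. The number of shuttle genes that fell was 0 on each day, where 17.1%, 23.5% and 20.8% of all genes were called lower.

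**Figure D1:**
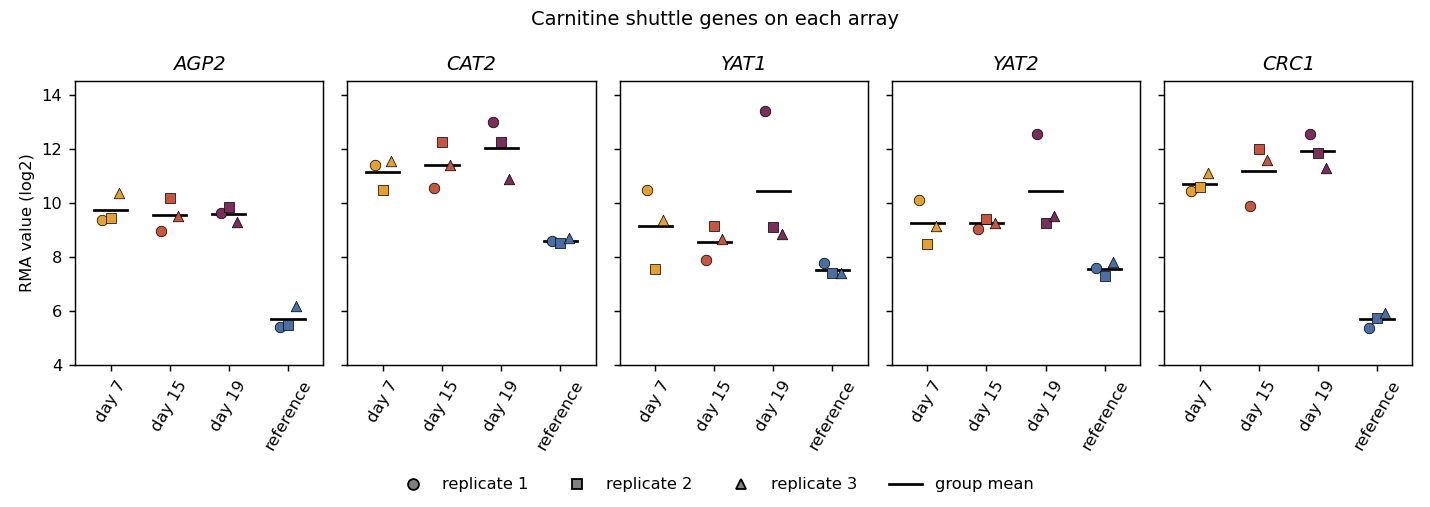
RMA value (log2) of the 5 carnitine shuttle genes on each of the 12 arrays, by bottle day and in the reference, with replicates as symbols and the group mean as a line. AGP2 and CRC1 sit at 8.95 or above in every bottle and at 5.39 to 6.20 in the reference, while the day 19 replicate 1 array carries YAT1 and YAT2 to 13.39 and 12.54.

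The first step is uptake. AGP2 stood at 9.36, 9.45 and 10.35 on the 3 arrays of day 7, at 8.95, 10.17 and 9.50 at day 15 and at 9.61, 9.83 and 9.30 at day 19, against 5.42, 5.48 and 6.20 in the reference. The reference arrays were dim but above their own background, by at least 0.66. Every bottle array was more than 2 log2 units above every reference array. The difference was 4.02 ± 0.363 at day 7 (standard error, adjusted p = 2.99e-05), 3.84 at day 15 (adjusted p = 3.92e-05) and 3.88 at day 19 (adjusted p = 3.22e-05). In fold terms the increase was 16.2, 14.3 and 14.7, and no difference between bottle days was called by limma (F-test adjusted p = 0.939), with a 95% interval of -0.94 to 0.65 for day 19 minus day 7. RNA of whole cultures was measured, so more cells with the transcript and more transcript per cell cannot be told apart.

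CAT2 encodes the acetyltransferase of peroxisomes and the mitochondrial matrix. Its values were 11.38, 10.47 and 11.55 at day 7, 10.56, 12.25 and 11.39 at day 15 and 12.97, 12.24 and 10.89 at day 19, against 8.60, 8.50 and 8.69 in the reference. The lowest bottle array lay at 10.47 and the highest reference array at 8.69, so no bottle day overlapped with the reference. CAT2 rose by 2.54 ± 0.525 at day 7 (adjusted p = 0.00389), 2.80 at day 15 (adjusted p = 0.00173) and 3.44 at day 19 (adjusted p = 0.000576). The bottle days overlapped with each other, and day 19 minus day 7 was 0.90 with a 95% interval of -0.25 to 2.05 (adjusted p = 0.522).

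YAT1, the acetyltransferase of the outer mitochondrial membrane, had the widest spread of the 5 genes between bottles of day 7 and of day 19. Its values were 10.46, 7.56 and 9.36 at day 7, 7.88, 9.15 and 8.67 at day 15 and 13.39, 9.11 and 8.83 at day 19, against 7.76, 7.42 and 7.41 in the reference. Replicate 2 of day 7 lay within the reference range, so those groups overlapped, while all arrays of day 15 and day 19 lay above the reference. The change was 1.60 ± 1.04 at day 7 (adjusted p = 0.247), 1.04 ± 1.04 at day 15 (adjusted p = 0.435) and 2.92 ± 1.04 at day 19 (adjusted p = 0.0411). The 95% intervals were wide, from -0.69 to 3.88 at day 7 and from 0.63 to 5.20 at day 19. The day 7 difference was 0.93 without its replicate 1 and 2.38 without its replicate 2, and it was 1.60 with adjusted p = 0.0469 in limma without day 19 replicate 1.

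The day 19 call of YAT1 was lost without replicate 1 of that day. Without that array the change was 1.44 (adjusted p = 0.0958), and without replicate 2 or 3 it was 3.58 or 3.72. The call was lost under 10 of 25 alternative settings, 7 of which left out a single array. Besides day 19 replicate 1, these were each of the 3 reference arrays (2.86 to 3.03, adjusted p = 0.0817 to 0.0989 in limma). The others were day 7 replicate 3 and day 15 replicates 2 and 3 (2.92, adjusted p = 0.0527 to 0.055 in limma). Over the 10 settings adjusted p ran from 0.0411, at the stricter threshold of 0.01, to 0.0989. With replicate 1 of day 7 and of day 19 both left out, the change at day 19 was again 1.44 and adjusted p was 0.0321.

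YAT2 encodes the remaining carnitine acetyltransferase. Its values were 10.10, 8.48 and 9.14 at day 7, 9.05, 9.42 and 9.24 at day 15 and 12.54, 9.26 and 9.51 at day 19, against 7.58, 7.30 and 7.83 in the reference. Each of the 9 bottle arrays was above each of the 3 reference arrays. YAT2 rose at day 19 by 2.87 ± 0.71 (adjusted p = 0.00812), and its differences of 1.67 at day 7 (adjusted p = 0.0838) and 1.67 at day 15 (adjusted p = 0.075) did not pass. Without day 19 replicate 1 the day 19 change was 1.81 (adjusted p = 0.0039), and without replicate 2 it was 3.46. Without replicate 1 of day 19 the day 7 and day 15 differences, unchanged in size, had adjusted p = 0.00324 and 0.00253, since limma pools the spread over all groups and that array then no longer enters it. Counted without that array, 5 of the 5 shuttle genes rose at day 7, 4 at day 15 and 4 at day 19. Of all 5449 genes, 1271 to 2469 were called in either direction at day 7 with single arrays left out. At day 15 these totals ran from 1697 to 2849 and at day 19 from 1582 to 2547. Arrays of the bottles lay wholly above the reference for 4 shuttle genes at day 7, 5 at day 15 and 5 at day 19, where 30.8%, 33.0% and 28.9% of all genes did.

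CRC1 closes the shuttle by exchanging acetylcarnitine for carnitine across the inner mitochondrial membrane. Its values were 10.45, 10.58 and 11.12 at day 7, 9.89, 11.99 and 11.60 at day 15 and 12.56, 11.85 and 11.28 at day 19, against 5.39, 5.75 and 5.93 in the reference. The reference arrays were dim but above their own background, by at least 0.67, and the lowest bottle array was still 9.89. CRC1 rose by 5.02 ± 0.489 at day 7 (adjusted p = 4.47e-05), 5.47 at day 15 (adjusted p = 2.87e-05) and 6.21 at day 19 (adjusted p = 1.1e-05). The 95% intervals ran from 3.95 to 6.10, from 4.40 to 6.54 and from 5.14 to 7.28. Without replicate 1 of day 15, the lowest bottle array, the day 15 rise was 6.10. Every array of day 19 was above every array of day 7, a difference of 1.18 with a 95% interval of 0.11 to 2.26 that did not pass after adjustment (adjusted p = 0.355 in limma). Of all genes, 5.87% had every array of day 19 above every array of day 7.

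**Figure D2:**
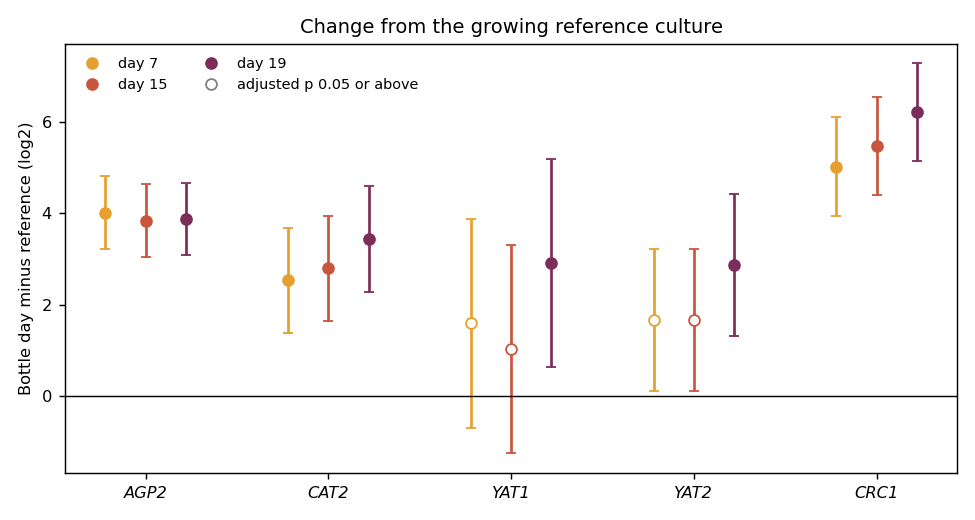
Difference of each bottle day from the reference (log2) for the 5 carnitine shuttle genes, with limma's 95% interval and open symbols where adjusted p was 0.05 or above. CRC1 lies highest at 5.02 to 6.21, AGP2 is level at 3.84 to 4.02, and the open symbols are YAT1 and YAT2 at day 7 and day 15.

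Between bottle days the shuttle genes showed no called change. In limma 0 of 5 passed for day 15 over day 7, for day 19 over day 15, for day 19 over day 7 and in the F-test over the 3 days, against 0%, 0%, 0.147% and 0.0367% of all genes. At an unadjusted p under 0.05 the counts were 0, 0, 1 (CRC1) and 0 of the 5, against 572, 600, 675 and 687 of all genes. The largest difference between means was that of YAT1 for day 19 minus day 15, at 1.88 with a 95% interval of -0.41 to 4.17, and it was 0.41 without day 19 replicate 1. For YAT2 the interval of day 19 minus day 15 was -0.36 to 2.75 and for CAT2 -0.52 to 1.78, so both intervals still hold changes of more than 2-fold at 3 arrays a day.

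The order of the days differed between genes. Means of CRC1 and CAT2 were lowest at day 7 and highest at day 19, AGP2 was highest at day 7, and YAT1 and YAT2 were highest at day 19. No difference between neighbouring bottle days in these orders was called by limma, and for each gene the reference mean was lowest.

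Bottles of the same day differed from each other in a way that split the family. On day 19 replicate 1, YAT1 was 4.42 above the mean of the other day 19 arrays and YAT2 3.16 above, while CAT2 was 1.40, CRC1 0.99 and AGP2 0.05 above. Of all genes, 8 had a larger gap than YAT1 on that array and 31 a larger one than YAT2, whereas 2583 exceeded AGP2. On day 7 replicate 1, YAT1 and YAT2 were again above the other arrays of their day, by 2.00 and 1.29, and CRC1 and AGP2 differed by -0.40 and -0.55. The standard deviation of YAT1 over the 3 arrays of day 19 was 2.55, against a median of 0.43 over all genes, which placed it 21st of 5449, and that of AGP2 was 0.27.

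A different pair of arrays moved all 5 genes at day 15. On replicate 1 each of them lay below the mean of the other arrays of that day, from -0.28 for YAT2 to -1.90 for CRC1. On replicate 2 each lay above, from 0.28 for YAT2 to 1.28 for CAT2. CRC1 had its widest spread there, with a standard deviation of 1.11, and YAT2 its narrowest, at 0.19. On day 7 replicate 2 all 5 genes were also below the mean of the other arrays of their day, with YAT1 lowest at -2.35.

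**Figure D3:**
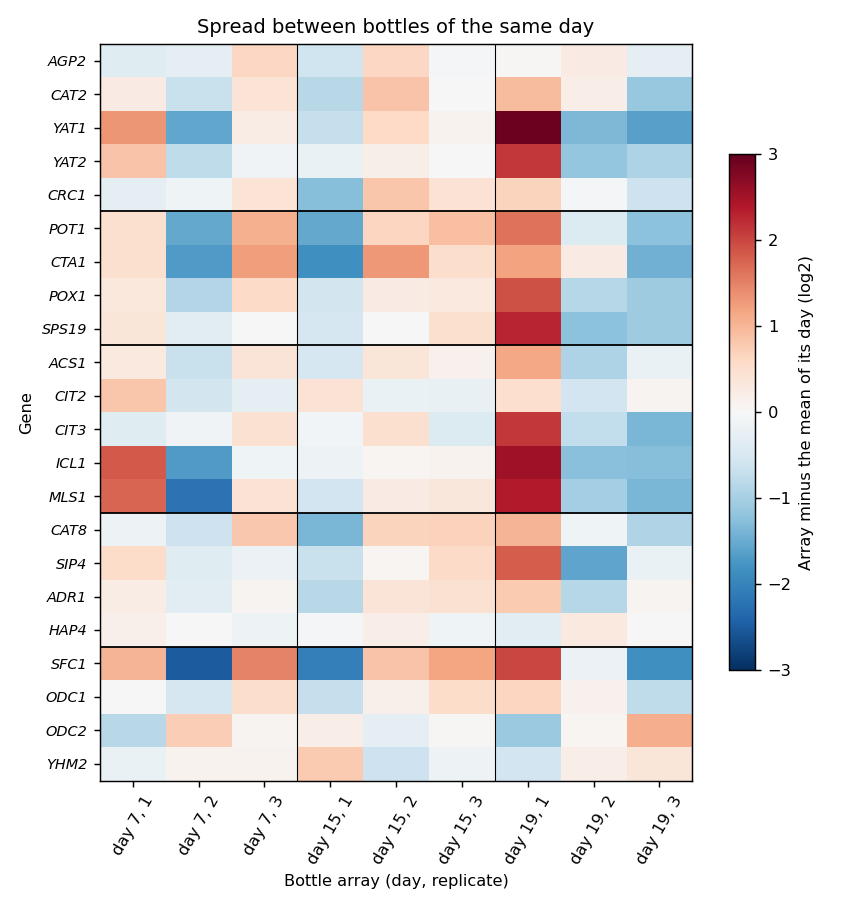
Colour shows the level on each of the 9 bottle arrays minus the mean of its day (log2) for the 5 carnitine shuttle genes and, below the lines, named genes of beta-oxidation, acetyl-CoA and citrate metabolism, regulation and other carriers. The day 19 replicate 1 column is darkest for YAT1, ICL1, MLS1, SPS19, YAT2 and CIT3 and pale for AGP2.

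Genes with the most similar profile over the 12 arrays, after each gene's own mean was taken off, differed by shuttle gene. The closest to CRC1 were PEX18, a factor for import into peroxisomes (root mean square difference 0.36 log2), CLD1, a cardiolipin lipase of mitochondria (0.42), and YIG1 (0.55). PEX18 was not above background on any reference array, at 4.13, 3.96 and 4.33, and YIG1 was below it on reference replicate 2, at 4.75. Their likeness to CRC1 thus rests in part on values at background. CAT2 was closest to PXA2, a subunit of the transporter that brings fatty acids into peroxisomes (0.37), and to ATH1, the acid trehalase (0.39), and IDP2, the cytosolic isocitrate dehydrogenase (0.39). YAT1 was closest to ICL1, the isocitrate lyase of the glyoxylate cycle (0.54), to YAT2 (0.56) and to SHH4, a paralogue of a succinate dehydrogenase subunit (0.61). YAT2 was closest to IDP3, the peroxisomal isocitrate dehydrogenase (0.28), to HEF3, a translation elongation factor (0.36), and to SHH4 (0.45). AGP2 was closest to SPI1, a cell wall protein (0.37), JEN1, the lactate and pyruvate permease (0.39), and RRT6 (0.43).

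Within the family YAT1 and YAT2 were the nearest pair at 0.56, and CRC1 and YAT1 the most distant at 1.98. Among 5331 genes ranked by likeness to YAT2, YAT1 came 14th and CRC1 4357th. The measure counts the size of a gene's changes as well as their shape. CRC1 ranged over 7.17 log2 units on the 12 arrays and YAT2 over 5.24, so the rank of CRC1 does not tell an unlike shape from a larger step. These differences and ranks describe 12 arrays that share the contrast between bottles and growing culture. The genes closest to YAT1 and YAT2 also share high values on day 19 replicate 1. There SHH4 stood at 13.56, against 9.14 and 9.74 on replicates 2 and 3, HEF3 at 12.43, against 9.48 and 10.11, and IDP3 at 11.63, against 8.96 and 9.38. Ranks without that array were not computed.

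Peroxisomal beta-oxidation supplies acetyl units to the shuttle. Of 15 genes of beta-oxidation and its peroxisomal partners, 8 rose at day 7, 9 at day 15 and 12 at day 19, and 0 fell. Over all genes, 19.7%, 21.4% and 22.7% were called higher on these days and 17.1%, 23.5% and 20.8% lower. The median change of the 15 was 1.51, 1.78 and 2.20, against -0.03, -0.08 and -0.03 for all genes. POT1, the thiolase that releases acetyl-CoA, rose by 5.10, 6.17 and 5.93 at day 7, day 15 and day 19. Its reference arrays were close to their own background, above it by as little as 0.18, so the size of these rises is uncertain. CTA1, the peroxisomal catalase, rose by 3.45, 3.88 and 4.97, POX1, the acyl-CoA oxidase, by 3.61, 3.82 and 4.28, and SPS19, a dienoyl-CoA reductase, by 3.14, 3.26 and 3.67. Without day 19 replicate 1 the day 19 rises were 5.11 for POT1, 4.38 for CTA1, 3.32 for POX1 and 2.53 for SPS19, each still called in limma, and those of POX1 and SPS19 were then smaller than at day 7 and day 15. Without replicate 3 of day 19 they were 6.56 for POT1 and 5.69 for CTA1, and without replicate 2 4.28 for SPS19. Without day 7 replicate 2 the day 7 rises were 5.87 for POT1 and 4.31 for CTA1, and without day 15 replicate 1 the day 15 rises were 6.94 and 4.79. CTA1 at day 7 was 2.83 and no longer called without day 7 replicate 3 (adjusted p = 0.0545 in limma), and at day 15 it was 3.23 without day 15 replicate 2.

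The count of beta-oxidation genes that rose at day 7 was 5 without any 1 of the 3 reference arrays or without day 7 replicate 1, and 4 without day 7 replicate 3. On day 19 replicate 1, 13 of the 15 were at least 1 log2 unit above the other arrays of that day, as were 3 of the 5 shuttle genes and 10.6% of all genes. Without that array 11 of the 15 rose at day 7, 13 at day 15 and 11 at day 19. Of all 5449 genes, 1271 to 2469 were called in either direction at day 7 with single arrays left out. At day 15 these totals ran from 1697 to 2849 and at day 19 from 1582 to 2547.

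A further list held 10 enzymes that make acetyl-CoA or pass it to citrate, the glyoxylate cycle and acetate. Of the 10, 7 rose at day 7, 7 at day 15 and 9 at day 19, where 19.7%, 21.4% and 22.7% of all genes did. The medians of the 10 were 2.26, 1.86 and 2.14, against -0.03, -0.08 and -0.03 for all genes. ACS1, the acetyl-CoA synthetase of non-fermentative growth, rose by 2.43, 2.39 and 3.47. Malate synthase MLS1 rose by 4.65, 3.95 and 4.72. Citrate synthase CIT3 rose by 2.82, 3.19 and 4.27, from reference arrays above their own background by as little as 0.49. Without day 19 replicate 1 the day 19 rise was 3.53 for MLS1 and 3.21 for CIT3, and without replicate 3 it was 5.39 and 4.96. The day 7 rise of MLS1 was 3.77 without replicate 1 and 5.75 without replicate 2 of that day.

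ICL1 stood at 13.51, 9.70 and 9.68 at day 19 and passed there with 2.68 ± 0.984 (adjusted p = 0.0452), and its values of 2.51 at day 7 and 1.26 at day 15 did not pass. Without day 19 replicate 1 its day 19 difference was 1.41 (adjusted p = 0.135 in limma), and its day 7 difference of 2.51 then passed (adjusted p = 0.0103). Without replicate 2 or 3 of day 19 the difference was 3.31 or 3.32. The day 19 call was also lost without any 1 of the reference arrays, any 1 of the day 15 arrays or day 7 replicate 3 (adjusted p = 0.0575 to 0.104). The day 7 difference was 1.59 without day 7 replicate 1 (adjusted p = 0.228) and 3.37 without day 7 replicate 2 (adjusted p = 0.0271).

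CIT2, the peroxisomal citrate synthase of the route that can bypass carnitine, rose at day 19 and did not pass at day 7 or day 15. It stood at 12.96, 11.57 and 11.82 at day 7, 13.25, 12.60 and 12.58 at day 15 and 14.14, 13.06 and 13.72 at day 19, against 12.14, 12.18 and 12.34 in the reference. The difference was -0.10 at day 7 (adjusted p = 0.849) and 0.59 at day 15 (adjusted p = 0.215), and CIT2 rose by 1.43 ± 0.374 at day 19 (adjusted p = 0.0109). Day 7 overlapped with the reference and the later days lay above it.

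Of 8 regulators of these genes, 4 rose at day 7, 4 at day 15 and 5 at day 19, and 0 fell. Over all genes, 19.7%, 21.4% and 22.7% were called higher on these days and 17.1%, 23.5% and 20.8% lower. The medians of the 8 were 1.04, 1.20 and 1.32, against -0.03, -0.08 and -0.03 for all genes. CAT8, the activator of gluconeogenic genes, rose by 4.45, 4.32 and 3.85, SIP4, another activator of these genes, by 3.41, 3.29 and 4.23, and ADR1, an activator of peroxisomal genes and of ethanol use, by 3.11, 3.36 and 3.00. The reference arrays of SIP4 were above their own background by as little as 0.34. HAP4, a subunit of the activator of respiratory genes, rose by 1.54, 1.58 and 1.57. The fifth at day 19, named after its values were seen, was OAF1, a sensor of oleate, with a rise of 1.06 (adjusted p = 0.0288 in limma). That call was lost without any 1 of the reference arrays or replicate 2 or 3 of day 19 (adjusted p = 0.0526 to 0.103), and its day 15 difference of 0.81 was 1.22 and passed without day 15 replicate 1 (adjusted p = 0.00667). On day 19 replicate 1 SIP4 stood at 11.48, against 8.08 and 9.46 on the other arrays of that day, and CAT8 at 11.86, against 10.69 and 9.93. Without that array the day 19 rise of SIP4 was 3.32, and without replicate 2 it was 5.02. The day 15 rise of CAT8 was 5.00 without day 15 replicate 1. SNF1, the kinase that relieves glucose repression, fell at day 19 without replicate 1 by 0.61 (adjusted p = 0.0428), against a difference of -0.48 with it (adjusted p = 0.0875). MIG1, a repressor active on glucose, fell at day 19 by 1.62 without replicate 2 of that day (adjusted p = 0.0358 in limma), against a difference of -1.01 with it (adjusted p = 0.178) and of -0.25 without replicate 1. Both were named after their values were seen.

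CRC1 belongs to a family of mitochondrial carriers, of which 7 others were set beside it. They went both ways: 2 rose at day 7, 2 at day 15 and 2 at day 19, while 2, 2 and 3 fell. Over all genes, 19.7%, 21.4% and 22.7% were called higher on these days and 17.1%, 23.5% and 20.8% lower. Whether the 7 carriers differ from these shares was not tested. The medians of the 7 were -0.21, -0.03 and -0.50. SFC1, the succinate and fumarate carrier, was not above background on any reference array and was at least 12.9-fold higher at day 7, 10.7-fold at day 15 and 38.4-fold at day 19 (adjusted p = 0.0186, 0.0204 and 0.00324 in limma). Leaving out 1 array of the day moved the lower bounds in fold to between 7.72-fold and 30.6-fold at day 7, 7.10-fold and 21.8-fold at day 15, and 19.1-fold and 72.8-fold at day 19, where the lowest of the last range is without replicate 1. The call of SFC1 was lost at day 7 without reference replicate 1 or 2 or day 7 replicate 1 or 3 (adjusted p = 0.0539 to 0.072), and at day 15 without reference replicate 1 or 2 or day 15 replicate 2 or 3 (adjusted p = 0.0552 to 0.0825). ODC1, an oxodicarboxylate carrier, rose by 2.81, 2.81 and 2.59, and its paralogue ODC2 differed by -0.73 and -0.36 at day 7 and day 15 and fell by 1.48 at day 19 (adjusted p = 0.0312). YHM2, a citrate and oxoglutarate carrier, fell by 1.28, 1.05 and 1.15, and so did CTP1, the citrate carrier, named after its values were seen, by 1.12, 1.13 and 0.73. Without day 19 replicate 1, CTP1 alone of the 7 fell at day 19, and ODC2 and YHM2 were at -0.92 and -0.86 (adjusted p = 0.0931 and 0.0573). ODC2 also lost its call without day 19 replicate 2 or any 1 of the reference arrays. YHM2 lost its day 19 call without reference replicate 1 or 2, and its day 15 call without any 1 of the reference arrays or day 15 replicate 2 or 3 (adjusted p = 0.0564 to 0.12). Quantile normalization left 1 that rose at day 7 and 1 at day 15, and so did leaving out reference replicate 1 or 2. At day 7 leaving out its replicate 1 or 3 also left 1, as did leaving out replicate 2 or 3 of day 15 for that day.

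**Figure D4:**
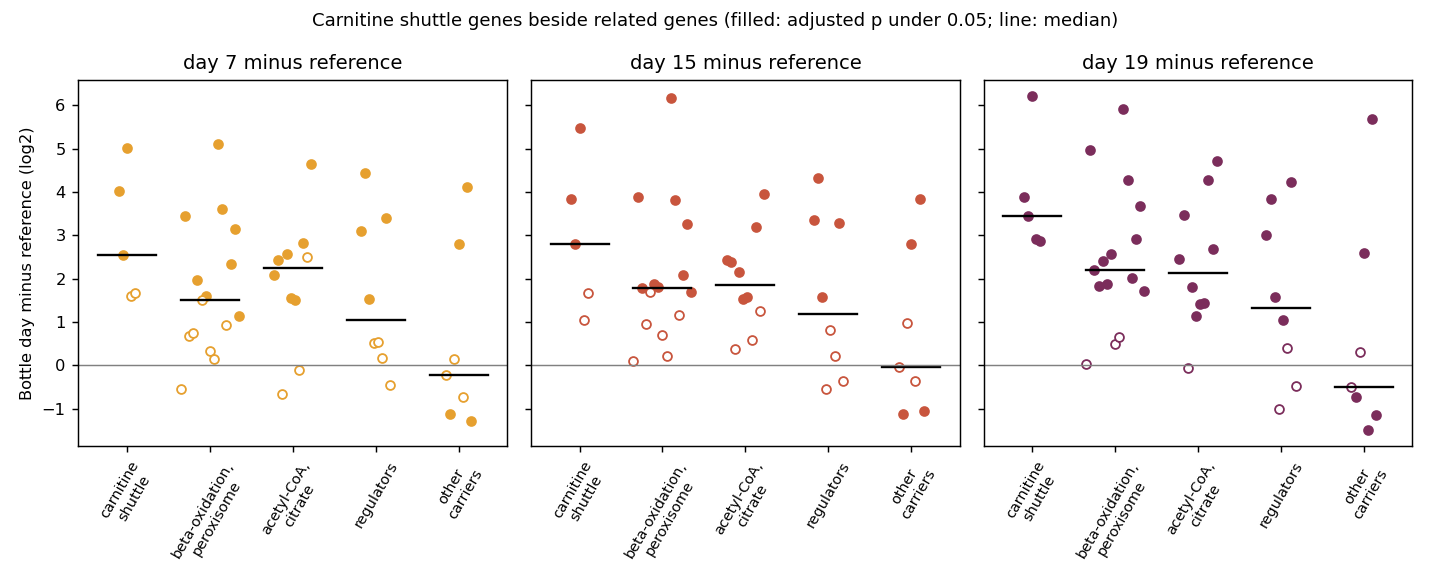
Difference of each bottle day from the reference (log2) for the 5 carnitine shuttle genes and 4 lists of related genes, with filled symbols where adjusted p was under 0.05 and a line at each list's median. The shuttle medians are 2.54, 2.80 and 3.44, and the other carriers lie on both sides of 0.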

How the data were processed

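The authors deposited log2 probe set values made with RMA, per the submitters' processing notes; its version is not given in the sources used here. Labelled cRNA was made from 5 µg of total RNA per array, per the labels' protocols. Of 10928 probe sets, 5498 were paired with 1 S. cerevisiae gene by the platform annotation. The probe set of highest mean was kept per gene, which left 5449 genes. The 0.95 quantile of 1746 Schizosaccharomyces pombe probe sets on each array (4.50 to 4.82) served as background. No read depth applies to arrays, and 3 arrays per group limit the precision.

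One limma fit (limma 3.58.1, R 4.3.3, lmFit and eBayes) of the 4 groups had 8 residual and 3.42 prior degrees of freedom. Adjusted p is Benjamini-Hochberg over all 5449 genes, and genes were called at adjusted p under 0.05. The fit was tested on simulated data in which each gene had the same spread in all groups. In the real arrays the median standard deviation was 0.118 in the reference and 0.428 at day 19, and that test does not cover such unequal spread. The members and gene lists were chosen with earlier results of these data known. Named genes are the 5 members, up to 4 genes per list with the largest change from the reference on any day, ACS1, CIT2, CAT8 and ADR1, and the 3 genes closest to each member among those whose probe sets have no mark of shared sequence. Sequences were not used here. The closing section gives the effect of 25 alternatives. Figures used matplotlib 3.10.9.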

Additional observations from a re-analysis of the deposited data

How the results depend on the processing

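Against the reference, the 5 shuttle genes kept their direction in all 375 recomputed values, 10 lost the call (all of them YAT1 at day 19) and 12 gained one (YAT1 or YAT2 at day 7 or day 15). The calls of AGP2, CAT2 and CRC1 held under all 25 alternatives. The number of shuttle genes called at day 15 was 5 in place of 3 with only the groups compared and with array weights. Array weights called 4437 of all 5449 genes at day 15, against 2447 in the main fit. With only the groups compared, the count over all genes moved by no more than 1.5 times. With single arrays left out the number of shuttle genes called ranged from 3 to 5 at day 7, where 5 was reached without day 19 replicate 1. It ranged from 3 to 4 at day 15 and from 4 to 5 at day 19. Over all genes the counts then ranged from 1271 to 2469, from 1697 to 2849 and from 1582 to 2547. Between bottle days 0 shuttle genes were called in every case. Sign changes occurred among uncalled differences between bottle days. Day 15 over day 7 for YAT2 became 0.04 with median centring, 0.08 with quantile normalization, 0.44 with array weights, 0.43 with replicate 1 of both day 7 and day 19 left out and 0.19 with the coding length trend removed. For YAT1 it became 0.32 with array weights and 0.10 with both of those arrays left out. Day 19 over day 15 for AGP2 became -0.01 with median centring or quantile normalization. With 1 array left out at a time, day 15 over day 7 ranged from -0.38 to 0.43 for YAT2, from -1.35 to 0.10 for YAT1, from -0.16 to 0.68 for CAT2 and from -0.49 to 0.14 for AGP2. In the same way day 19 over day 15 ranged from -0.25 to 0.35 for AGP2, and day 19 over day 7 from -0.32 to 0.18 for AGP2 and from -0.15 to 2.13 for YAT1. The cause was not tested.

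Over all genes, 2007 were called at day 7, against 3483 with array weights, 1322 and 1271 without reference replicate 1 and 2 and 1047 at adjusted p under 0.01. At day 15 the count of 2447 became 4437 with array weights and 1480 at the stricter threshold, and at day 19 2372 became 1311 at that threshold. Counts between bottle days, 0 for day 15 over day 7, 0 for day 19 over day 15, 8 for day 19 over day 7 and 2 in the F-test, reached 1474, 804, 534 and 1824 under alternatives. The fit of the array weights did not fully converge. Quantile normalization moved the median of all genes to -0.11, -0.13 and -0.13 at day 7, day 15 and day 19. Of 600 recomputed counts over the related lists, 37 moved by over 1.5 times. Replicate numbers gave no steady pairing of the samples: same-numbered arrays deviated together at over 0.1 in 7 of 18 pairs, and 7 of 18 arrays correlated best with their own number. These correlations ran from -0.277 to 0.414. The highest was between replicate 1 of day 7 and of day 19, followed by 0.346 for replicate 2 of the same days. Some of the 18 pairs set a bottle against the reference culture. With the replicate number as a block, 3, 3 and 5 shuttle genes were called at day 7, day 15 and day 19, as without it, and 4 genes in place of 8 were called for day 19 over day 7.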

Other observations

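The day 19 replicate 1 array was set beside the other day 19 arrays over 5332 genes with probe sets of their own, and the genes named here were chosen after their values were seen. The 8 genes with a larger gap than YAT1 were HXT5, PMA2, YDL218W, HBT1, FMP45, SIT1, FDH1 and AQY1. HXT5, a hexose transporter known from slow growth, stood at 13.08, against 7.53 and 7.44 on replicates 2 and 3, and its reference mean was 5.84. At the other end DAN1, a cell wall mannoprotein known from anaerobic growth, stood at 5.14, against 13.00 and 13.38 on the other arrays, and its reference mean was 5.34. TIR1, of the same kind, differed from the mean of the other day 19 arrays by -5.11 on the log2 scale. It stood at 8.0, and its reference mean was 13.43, so unlike DAN1 it was high in the growing culture. HXT4, a transporter known to be induced by low glucose, stood at 7.92, against 12.92 and 12.70, and its reference mean was 12.8.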
